A study of Homo sapiens with 12 samples.

Results

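DNA replication and S phase genes are described here as a list of 54 genes whose products recognise and license origins, unwind and copy DNA, supply nucleotides or package the new strands. The list was taken by gene symbol, and all 54 genes were measured, among 11963 genes tested on 12 Affymetrix arrays. For each gene the brightest probe set (a group of short probes) that names 1 gene was used. All 54 passed a filter on dim genes, which was tried as an alternative. The genes lie on 22 chromosomes.

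The labels give the cells as MDA-MB-231, a human breast cancer line without hormone receptors, and the study asks what changes when LSD2 (gene KDM1B), a histone demethylase, is lowered or raised. All 4 groups of 3 biological replicates were stably transfected and kept with G418 at 800 ug/ml to remove untransfected cells. For the knockdown, cells with an LSD2 shRNA stand against cells with a Scramble shRNA. For the overexpression, cells with the LSD2/eGFP/Flag vector stand against cells with the eGFP/Flag vector. Whether a group was 1 clone or a pool is not given in the labels, so the p-values measure the spread between these samples, which may be technical, and each comparison is also one between transfected lines.

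Before each S phase, origins are marked by the origin recognition complex, and CDC6 and CDT1 load the MCM helicase onto them. Cyclin E with CDK2 and the kinase CDC7 with DBF4 then switch the helicase on through CDC45 and the GINS complex, and polymerase alpha-primase, delta and epsilon copy the strands. Many of these genes are classic targets of the E2F transcription factors, which act in late G1, and their RNAs are widely used as a sign of cells entering S phase. Tumour lines such as MDA-MB-231 divide quickly and carry them at high levels.

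RefSeq promoter windows on GRCh38.p14, from 250 bases before to 50 bases after a gene's start, were matched for 47 of the 54 genes (62 windows, 12 genes having several). An E2F consensus, searched as TTTNGCGC or TTTCCCGC on both strands, was found in 24 of the 47 genes (51.1%) and in 6.19% of the 9563 tested genes that have a window. The 120 bases before the start are printed for 9 genes as examples. POLA2, CDT1, GINS2, MCM6, GMNN and CCNE1 rose in the vector comparison (CDT1 also with the shRNA), whereas PRIM1, POLE2 and SLBP rose with the shRNA and fell there. The examples are not the largest rises. GINS3 (1.29 log2 units), POLE3 (1.04) and MCM2 (0.84) rose by more than MCM6 (0.68), are not printed, and have no whole match in those 120 bases. The share of printed genes with a match is therefore no result. Each runs 5′ to 3′ on the gene's strand, with the letters of the E2F consensus in capitals.

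POLA2, chr11:65261842-65261961, plus strand: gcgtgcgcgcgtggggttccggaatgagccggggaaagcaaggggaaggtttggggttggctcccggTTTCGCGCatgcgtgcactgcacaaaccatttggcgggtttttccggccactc
CDT1, chr16:88803669-88803788, plus strand: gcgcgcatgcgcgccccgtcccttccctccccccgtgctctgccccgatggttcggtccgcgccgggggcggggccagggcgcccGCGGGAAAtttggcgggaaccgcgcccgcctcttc
GINS2, chr16:85688955-85689074, minus strand: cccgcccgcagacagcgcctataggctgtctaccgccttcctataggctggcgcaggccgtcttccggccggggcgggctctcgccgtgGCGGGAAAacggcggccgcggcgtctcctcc
MCM6, chr2:135876444-135876563, minus strand: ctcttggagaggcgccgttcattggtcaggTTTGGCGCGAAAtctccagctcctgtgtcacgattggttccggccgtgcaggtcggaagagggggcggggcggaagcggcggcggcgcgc
GMNN, chr6:24775293-24775412, plus strand: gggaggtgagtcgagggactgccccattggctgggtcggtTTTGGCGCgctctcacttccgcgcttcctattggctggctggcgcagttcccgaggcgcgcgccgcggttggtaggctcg
CCNE1, chr19:29811871-29811990, plus strand: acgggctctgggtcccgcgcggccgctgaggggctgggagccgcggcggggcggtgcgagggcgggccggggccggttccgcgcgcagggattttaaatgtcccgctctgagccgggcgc
PRIM1, chr12:56752324-56752443, minus strand: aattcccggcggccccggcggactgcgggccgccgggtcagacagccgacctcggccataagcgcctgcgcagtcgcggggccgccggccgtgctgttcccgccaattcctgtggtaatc
POLE2, chr14:49688215-49688334, minus strand: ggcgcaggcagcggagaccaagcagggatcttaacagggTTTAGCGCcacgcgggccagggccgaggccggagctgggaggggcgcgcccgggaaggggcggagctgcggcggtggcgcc
SLBP, chr4:1712320-1712439, minus strand: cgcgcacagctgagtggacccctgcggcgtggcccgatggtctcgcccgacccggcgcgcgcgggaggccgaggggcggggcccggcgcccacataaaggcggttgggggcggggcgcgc

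In the printed stretches POLA2, CDT1, GINS2, MCM6, GMNN and POLE2 hold the letters, and in MCM6 the match on one strand overlaps that on the other. The matches begin at -53 from the start in POLA2, -35 in CDT1, -31 in GINS2, -90 in MCM6, -80 in GMNN and -81 in POLE2, and POLE2 has a further match at -5 that runs past the start and is not in capitals. CCNE1, PRIM1 and SLBP have no match in their windows, which says only that these letters are not there. GMNN has another window, not printed, whose 250 bases before the start (chr6:24774687-24774936) hold no match. Among the genes with a window the consensus was present in 18 of 26 (69.2%) that rose in the vector comparison, in 2 of 7 (28.6%) that fell and in 4 of 14 (28.6%) that were not called. By the shRNA comparison it was present in 3 of 8 genes that rose (37.5%) and in 21 of 39 that were not called (53.8%). The CCAAT box was found in 27 of the 47 genes (57.4%) and 44.2% of the tested genes, and GGGCGG in 37 of the 47 (78.7%) and 69.8%. TTTGAA, the core of the cell cycle homology region of mitotic genes, was in 4 of the 47 genes (8.51%) and in 15.6% of the tested genes. The first E2F form alone, TTTNGCGC, was in 17 of the 47 genes (36.2%) and 3.40% of the tested genes. These are counts of letters, not measured binding.

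Values are the authors' log2 values, on which equal steps are equal ratios of signal. Differences are given with the standard error of the fit, and a gene is said to rise or fall where the adjusted p (limma, Benjamini-Hochberg over the 11963 genes) was under 0.05. Array medians were 6.65 to 6.71 in the shRNA set and 7.03 to 7.18 in the vector set. The 2 sets were therefore taken as processed apart, and no gene's level was tested between them. Arrays of a group correlated at 0.996 to 0.998 over genes. Between the groups compared, r was 0.991 to 0.994 for the shRNA pair and 0.904 to 0.908 for the vector pair. KDM1B was not analysed here, for want of a probe set naming it, which leaves the labels without that check. Arrays labelled LSD2/eGFP/Flag, all 3 of them, go against the cell line label. The mean of 12 MDA-MB-231 markers (VIM, CD44, AXL and others) was 11.14 to 11.32 on the 6 shRNA arrays and 11.78 to 11.84 on the eGFP/Flag arrays, but 6.69 to 6.89 on those 3 arrays. Of the 12 markers, 0 rose and 11 fell in the vector comparison (2 rose and 0 fell in the shRNA comparison). The mean of 8 embryonic kidney markers went from 6.15 to 6.30 on the eGFP/Flag arrays to 7.54 to 7.59 on the arrays labelled LSD2/eGFP/Flag (6 rose, 2 fell), and that of 9 neuronal markers from 6.21 to 6.34 up to 7.51 to 7.60 (4 rose, 3 fell). Luminal breast markers went from a mean of 7.83 to 7.93 to a mean of 7.02 to 7.03 (2 of 10 rose, 4 fell). Fibroblast and endothelial markers went from 5.10 to 5.28 up to 5.41 to 5.75 (3 of 8 rose, 1 fell). Blood cell markers were at a mean of 5.67 to 5.83 and then 5.69 to 5.70, and none of the 5 measured was called. In the shRNA comparison 1 luminal, 1 neuronal and 1 fibroblast or endothelial marker rose and 1 blood cell marker fell. All 3 arrays of the group are alike in this, so the vector comparison cannot be given without them. The part of the marker difference in the results for replication genes was not tested, and it cannot be told apart from the part of the vector.

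With the LSD2 shRNA, 9 of the 54 replication genes rose (16.7%) and 0 fell in the limma fit, where 5.00% of all genes tested rose and 5.53% fell. The rises were small, from 0.25 log2 units for CDC45 to 0.53 for PRIM1. The 9 genes were the primase subunits PRIM1 and PRIM2, the polymerase epsilon subunits POLE2 and POLE3, the helicase activators GINS3 and CDC45, the licensing factor CDT1, the kinase CDK2 and the histone mRNA binding protein SLBP. At an unadjusted p under 0.05, 17 of the 54 were higher and 2 lower, while 1316 of all 11963 genes were higher and 1439 lower. In a bulk sample, more cells in S phase and more RNA per cell cannot be told apart.

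The median difference of the 54 genes was 0.11 log2 units, and 40 of them lay above 0, while the median of all genes was -0.01. On all 3 LSD2 shRNA arrays 21 of the 54 were higher than on every Scramble array (13.5% of all genes) and 2 were lower (14.9% of all genes). The other 31 overlapped. Averaged over the 54 genes, the LSD2 shRNA arrays stood 0.15, 0.10 and 0.10 above the Scramble mean, and the Scramble arrays themselves at -0.01, -0.04 and 0.05.

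**Figure D1:**
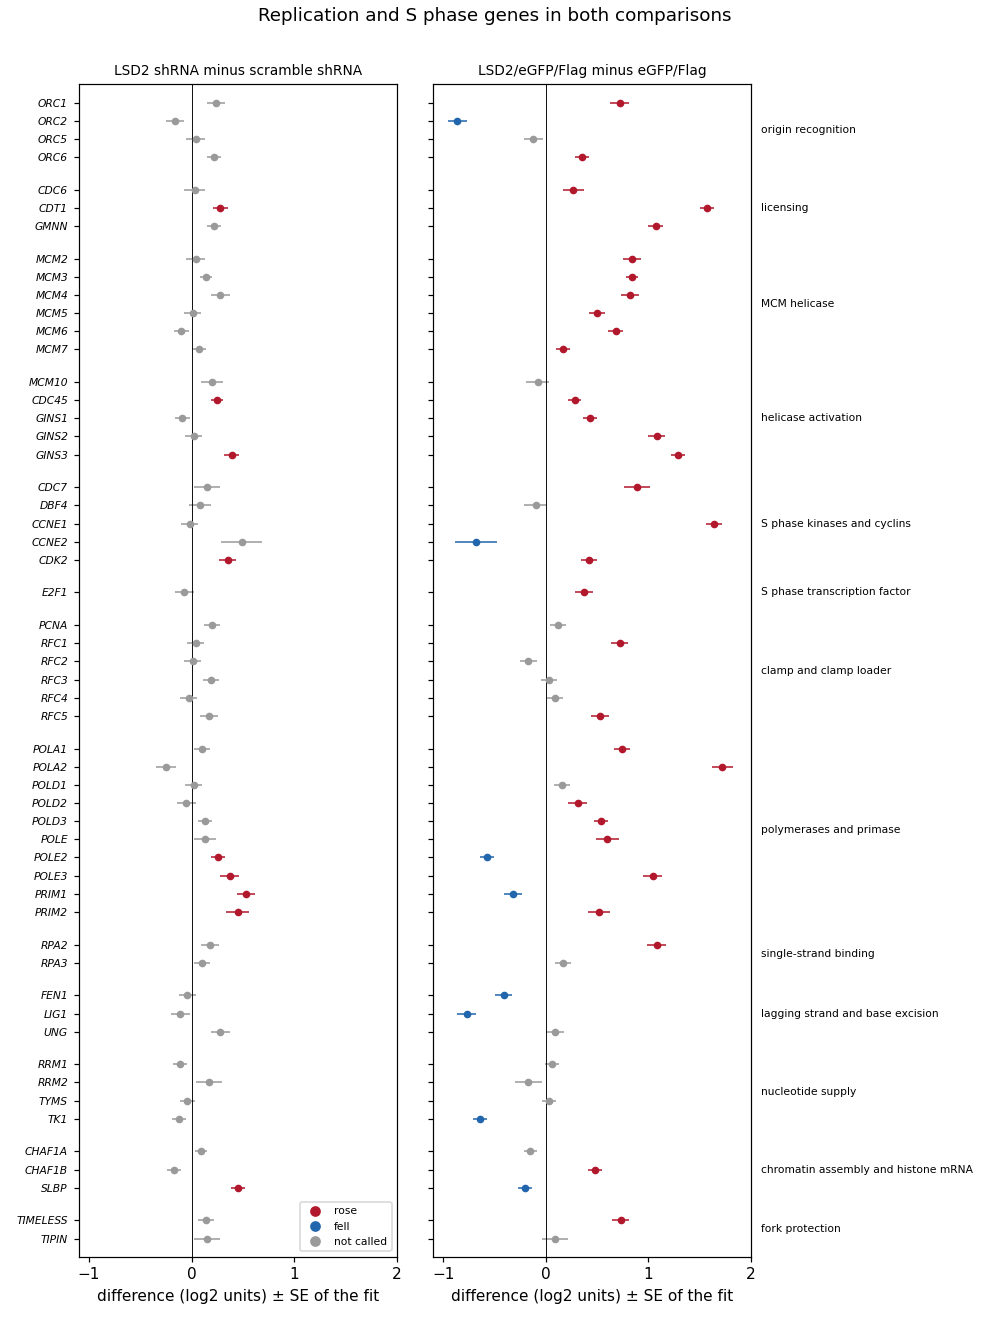
Difference in log2 units (x axis) of each of the 54 genes (y axis, grouped by role), LSD2 shRNA minus Scramble on the left and LSD2/eGFP/Flag minus eGFP/Flag on the right. Points are the fitted differences, bars ± 1 standard error, and colours the call. The left points lie between -0.25 and 0.53, with 9 called, and the right points between -0.86 and 1.72, with 31 rises and 8 falls.

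The largest rise was that of PRIM1, which encodes the catalytic subunit of primase, the enzyme that makes the RNA primers of both strands. PRIM1 was at 9.85, 9.79 and 10.09 on the Scramble arrays and at 10.42, 10.38 and 10.52 on the LSD2 shRNA arrays. The groups did not overlap, and the rise was 0.53 ± 0.09 log2 units (1.45-fold, adjusted p = 0.00214). PRIM2, its large regulatory partner, was at 6.80, 6.75 and 6.89 against 7.38, 7.42 and 6.99. LSD2 shRNA replicate 3 was the lowest of its group yet above every Scramble array, and the rise was 0.45 ± 0.11 (1.37-fold, adjusted p = 0.0215).

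Polymerase epsilon copies the leading strand, and both of its accessory subunits on the list rose. POLE2, the second subunit, was at 9.93, 9.78 and 9.94 and then at 10.15, 10.18 and 10.09, a rise of 0.26 ± 0.07 (1.19-fold, adjusted p = 0.0278). POLE3, a small histone-fold subunit that also serves a chromatin remodeller, was at 10.49, 10.58 and 10.65 and then at 11.08, 10.84 and 10.89, a rise of 0.37 ± 0.09 (1.29-fold, adjusted p = 0.0231). Every LSD2 shRNA array exceeded every Scramble array for both genes. The catalytic subunit POLE was at 0.13 ± 0.11 (adjusted p = 0.568) and was not called. Nor were POLA1 (0.10 ± 0.08) and POLA2 (-0.25 ± 0.10), subunits of the polymerase that extends primers, or POLD1 (0.02 ± 0.08), POLD2 (-0.05 ± 0.09) and POLD3 (0.13 ± 0.07), subunits of the lagging strand polymerase. POLA2 had the lowest difference of the 54 genes, with all 3 LSD2 shRNA arrays under the Scramble arrays and an adjusted p of 0.154.

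Among the helicase activators, GINS3, a subunit of the GINS complex, was at 7.68, 7.85 and 7.83 and then at 8.14, 8.19 and 8.19. It rose by 0.39 ± 0.07 (1.31-fold, adjusted p = 0.00543), and its other probe set also rose, by 0.46. CDC45, which joins MCM and GINS in the moving helicase, was at 8.83, 8.83 and 8.90 and then at 9.07, 9.13 and 9.10, a rise of 0.25 ± 0.06 (1.19-fold, adjusted p = 0.0156). The spread within each group was small for both genes, and the groups did not overlap. Other subunits of the same complex did not pass the test, with GINS1 at -0.09 ± 0.07 and GINS2 at 0.02 ± 0.08, and MCM10, which helps to open the helicase, was at 0.20 ± 0.11.

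CDT1, which brings MCM to the origin and is destroyed once S phase begins, was at 7.62, 7.43 and 7.52 and then at 7.84, 7.68 and 7.87. All LSD2 shRNA arrays were above all Scramble arrays, by 0.28 ± 0.07 on average (1.21-fold, adjusted p = 0.0316). GMNN, or geminin, the inhibitor of CDT1, was at 0.22 ± 0.07 with the groups apart but an adjusted p of 0.0602. CDC6, the other loader, was at 0.03 ± 0.10. CDK2, the kinase partner of cyclin E, was at 10.13, 10.19 and 10.10 and then at 10.47, 10.57 and 10.42. Its groups were well apart, and the rise was 0.35 ± 0.08 (1.27-fold, adjusted p = 0.0181). CDK2 has 2 other probe sets, at 0.14 and -0.03, and neither was called.

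SLBP binds the stem-loop of replication-dependent histone mRNAs and is known to accumulate in S phase. It was at 11.03, 11.06 and 11.21 on the Scramble arrays and at 11.58, 11.54 and 11.54 on the LSD2 shRNA arrays. The 3 LSD2 shRNA values lay close together and above all controls, and the rise of 0.45 ± 0.07 (1.37-fold) had the smallest adjusted p of the 54 genes in this comparison, 0.00103. The chromatin assembly subunits CHAF1A (0.09 ± 0.06) and CHAF1B (-0.17 ± 0.07) were not called.

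None of the remaining genes was called in either direction. The 6 MCM subunits ranged from -0.10 for MCM6 to 0.28 for MCM4, with a median of 0.06. The 4 origin recognition genes had a median of 0.13, among them ORC1 at 0.24 ± 0.09 and ORC6 at 0.22 ± 0.07 with adjusted p of 0.127 and 0.0706. The sliding clamp PCNA was at 0.20 ± 0.08 (adjusted p = 0.139), and the 5 measured subunits of its loader, RFC1 to RFC5, lay between -0.03 and 0.19. CCNE2, a cyclin E, was at 9.44, 9.04 and 9.44 and then at 10.23, 9.43 and 9.74. The second LSD2 shRNA array overlapped the Scramble arrays, and the difference of 0.49 ± 0.20 did not pass the test (adjusted p = 0.143). CCNE1, the other cyclin E, was at -0.02 ± 0.08 and E2F1 at -0.07 ± 0.09. UNG, which removes uracil from DNA, was at 0.28 ± 0.09 (adjusted p = 0.0676). The ribonucleotide reductase subunits RRM1 and RRM2 were at -0.11 ± 0.07 and 0.17 ± 0.13, but the dimmer probe set of RRM1 fell by 0.36 (adjusted p = 0.0181). The thymidylate synthase TYMS was at -0.04 ± 0.07 and the thymidine kinase TK1 at -0.12 ± 0.07. The nick sealing and flap removing enzymes LIG1 and FEN1 were at -0.11 ± 0.09 and -0.04 ± 0.08.

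The calls of PRIM1, GINS3 and SLBP held when any 1 of the 12 arrays was left out, and the other 6 did not. Of the 54 genes 4 were called without LSD2 shRNA replicate 1, and also 4 without Scramble replicate 1 or without Scramble replicate 2. Rises among all genes also dropped in these fits, from 598 to 365, 364 and 433 in that order. CDT1 was lost without Scramble 2 or 3 or LSD2 shRNA 1 or 3 (adjusted p 0.0794 to 0.131), and CDC45 without Scramble 1 or 2 or LSD2 shRNA 2 (0.0568 to 0.069). CDK2 was lost without Scramble 1 or 3 or LSD2 shRNA 1 or 2 (0.0538 to 0.0699), and POLE3 without Scramble 1 or 2 or LSD2 shRNA 1 (0.0646 to 0.109). Both POLE2 (0.0593 to 0.124) and PRIM2 (0.0745 to 0.0973) were lost without Scramble 1 or 2 or LSD2 shRNA 1 or 2. CDT1, POLE2 and PRIM2 were also lost in a fit on the shRNA arrays alone, and CDK2 with the mean of all probe sets of a gene. None of the 9 changed direction in any alternative.

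The calls of all genes were uneven along the genome in this comparison. On chromosome 12, which holds CDK2 and PRIM1, 61 of 674 genes rose and 6 fell, on chromosome 14 (POLE2) 33 of 381 rose and 8 fell, and on chromosome 4 (SLBP) 35 of 453 rose and 12 fell. On chromosome 6, the place of PRIM2, 41 of 673 rose and 13 fell. CDT1 and GINS3 lie on chromosome 16, where 8 of 524 rose and 15 fell, POLE3 on chromosome 9, where 13 of 452 rose and 18 fell, and CDC45 on chromosome 22, where 8 of 312 rose and 6 fell. Chromosome 3, with 96 of 655 genes rising and 7 falling, holds MCM2 and RFC4, neither of which was called. Chromosomes 11 and 17, with 107 of 732 and 115 of 700 genes falling, hold POLA2, POLD3, FEN1, RRM1, CDC6 and TK1, none of them called. In the vector comparison the calls were uneven too. On chromosome 16, 270 of 524 genes rose and 63 fell, and all 4 listed genes there (ORC6, CDT1, GINS2 and GINS3) rose. On chromosome 22, 175 of 312 rose and 29 fell, and MCM5 and CDC45 both rose. On chromosome 12, by contrast, 153 of 674 rose and 216 fell, and 4 of the 6 listed genes rose and 1 fell. The part of chromosomal position in the calls of either comparison was not tested.

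In the vector comparison 31 of the 54 replication genes rose (57.4%) and 8 fell (14.8%) on the arrays labelled LSD2/eGFP/Flag, where 30.9% of all genes tested rose and 26.1% fell. Cyclin E1, CDT1, geminin, the MCM and GINS subunits, CDC7 and most polymerase subunits were among the rises, the largest being POLA2 at 1.72 log2 units. ORC2, cyclin E2, the primase subunit PRIM1, POLE2, the ligase LIG1, FEN1, TK1 and SLBP fell, by 0.20 to 0.86 log2 units. The 54 genes had a median of 0.33 and ranged from -0.86 to 1.72, against a median of 0.01 for all genes.

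Of the 54 genes, 32 were higher on all 3 arrays labelled LSD2/eGFP/Flag than on every eGFP/Flag array (32.7% of all genes) and 9 were lower (28.4% of all genes), which left 13 that overlapped. A difference of at least 1 log2 unit was seen in 8 of the 54, and 18.3% of all genes were called with one of that size. Averaged over the 54 genes the arrays labelled LSD2/eGFP/Flag stood at 0.35, 0.37 and 0.33 and the eGFP/Flag arrays at 0.00, 0.04 and -0.04 from the control mean. A shift of every array to the same median moved the median of all genes from 0.01 to -0.12, and that of the 54 genes from 0.33 to 0.19. After that shift 25 of the 54 rose and 10 fell, while among all genes 2920 rose and 4295 fell in place of 3701 and 3123.

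**Figure D2:**
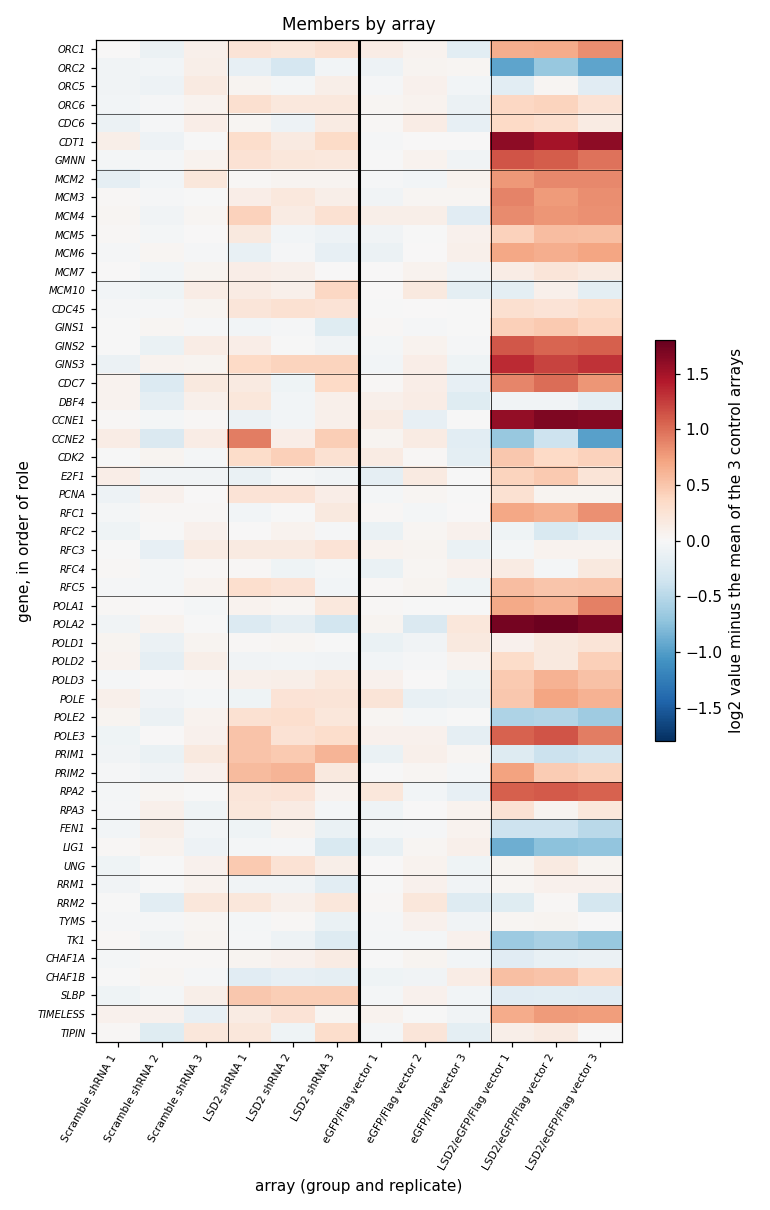
Each gene's log2 value minus the mean of the 3 control arrays of its comparison (colour, red higher and blue lower) for the 54 genes (y axis, in order of role) on the 12 arrays (x axis, group and replicate). The thick line separates the shRNA from the vector arrays. The 3 arrays labelled LSD2/eGFP/Flag are alike, with a mean over the genes of 0.33 to 0.37, and the LSD2 shRNA arrays are paler, at 0.10 to 0.15.

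All 3 licensing genes rose, by a median of 1.07. CDT1 was at 7.30, 7.33 and 7.33 on the eGFP/Flag arrays and at 8.94, 8.82 and 8.92 on the arrays labelled LSD2/eGFP/Flag, a rise of 1.57 ± 0.07 (2.97-fold, adjusted p = 6e-10). Its inhibitor GMNN rose by 1.07 ± 0.07 (2.10-fold, adjusted p = 1.1e-08), from 11.66, 11.74 and 11.61 to 12.81, 12.76 and 12.65. Both genes had control arrays within a narrow range and no overlap. CDC6 rose by 0.27 ± 0.10 (adjusted p = 0.027). That call was lost without LSD2/eGFP/Flag replicate 1 or 2, or control replicate 3 (adjusted p 0.0695 to 0.119) and after cyclic loess, the shift to equal medians or array weights.

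All 6 MCM subunits, which form the ring of the helicase, rose, with a median of 0.75 (5 of the 6 after the shift to equal medians). MCM2 was at 12.09, 12.06 and 12.17 and then at 12.89, 12.97 and 12.97, a rise of 0.84 ± 0.09 (adjusted p = 1.4e-06). MCM3 went from 11.40, 11.49 and 11.50 to 12.36, 12.23 and 12.30, a rise of 0.84 ± 0.06 (adjusted p = 8.2e-08). Of MCM4 the values were 11.40, 11.40 and 11.10 and then 12.15, 12.10 and 12.12, a rise of 0.82 ± 0.09 (adjusted p = 3.5e-06). In these 3 genes every array labelled LSD2/eGFP/Flag was above every control array, and the 3 other probe sets of MCM4 rose too. MCM6 rose by 0.68 ± 0.07 and MCM5 by 0.50 ± 0.08. MCM7 rose least, by 0.17 ± 0.07 (adjusted p = 0.0388), with its other probe set at 0.15 and not called. Leaving out any 1 of 6 arrays (Scramble 1, LSD2 shRNA 2, eGFP/Flag 1 or 3, or LSD2/eGFP/Flag 2 or 3) ended the MCM7 call, at an adjusted p of 0.0506 to 0.122, as did a replicate block and the fit on the vector arrays alone.

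Of the origin recognition genes, ORC1 rose by 0.72 ± 0.09 and ORC6 by 0.35 ± 0.07, ORC5 was not called (-0.12 ± 0.09) and ORC2 fell. ORC2 was at 10.38, 10.53 and 10.52 and then at 9.53, 9.79 and 9.53. It fell by 0.86 ± 0.09 (1.81-fold, adjusted p = 2.5e-06), the largest fall of the 54 genes, with the groups well apart. ORC6 was no longer called after the shift to equal medians, and the median of the 4 genes went from 0.12 to -0.02 there.

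Among the helicase activators 4 of 5 rose. GINS3 was at 8.67, 8.84 and 8.64 and then at 10.06, 9.93 and 10.02, a rise of 1.29 ± 0.07 (2.44-fold, adjusted p = 4.7e-09), and its other probe set rose by 1.37. GINS2 went from 10.85, 10.95 and 10.87 to 12.01, 11.94 and 11.97, a rise of 1.08 ± 0.08 (2.12-fold, adjusted p = 3.8e-08). All modified arrays of both genes lay above all controls. GINS1, of the same complex, rose by 0.43 ± 0.07. CDC45 rose by 0.28 ± 0.06 (adjusted p = 0.00088), from 10.22, 10.23 and 10.21 to 10.51, 10.47 and 10.53, and this call was lost after the shift to equal medians. MCM10 was at -0.08 ± 0.11 with overlapping groups.

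The cyclin E genes went opposite ways. CCNE1 was at 8.79, 8.49 and 8.62 and then at 10.22, 10.32 and 10.29, a rise of 1.64 ± 0.08 (3.12-fold, adjusted p = 1e-09). CCNE2 was at 11.03, 11.12 and 10.78 and then at 10.29, 10.61 and 10.00, a fall of 0.68 ± 0.20 (1.60-fold, adjusted p = 0.00887), and its other probe set also fell, by 0.75. The groups of CCNE2 were apart, but its arrays scattered more than those of CCNE1. CDK2, their kinase, rose by 0.42 ± 0.08 (adjusted p = 0.00067), from 11.26, 11.13 and 10.94 to 11.60, 11.48 and 11.52. Of its other probe sets 1 rose by 0.22 (adjusted p = 0.0461) and 1 was at -0.04. CDC7, the kinase that phosphorylates MCM, went from 10.45, 10.55 and 10.28 to 11.30, 11.44 and 11.21, a rise of 0.89 ± 0.13 (1.85-fold, adjusted p = 3.6e-05). Its activating subunit DBF4 was at -0.10 ± 0.11 and was not called, and the groups overlapped. E2F1 rose by 0.37 ± 0.09 (adjusted p = 0.00389) in its brightest probe set and fell by 0.31 in the other (adjusted p = 0.00333), so its direction depends on the probe set, and the call was lost with their mean or with equal medians.

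Of the 10 polymerase and primase genes 7 rose and 2 fell. POLA2, the second subunit of polymerase alpha, was at 8.51, 8.20 and 8.65 on the eGFP/Flag arrays and at 10.17, 10.21 and 10.14 on the arrays labelled LSD2/eGFP/Flag. The rise of 1.72 ± 0.10 (3.30-fold, adjusted p = 4.5e-09) was the largest of the 54, and the controls scattered more than the modified arrays. POLE3 rose by 1.04 ± 0.09 (2.05-fold, adjusted p = 3.8e-07), from 11.13, 11.12 and 10.89 to 12.11, 12.18 and 11.96. PRIM2 rose by 0.52 ± 0.11 (1.44-fold, adjusted p = 0.0012), from 7.84, 7.88 and 7.82 to 8.57, 8.30 and 8.25. For each of the 3 genes the groups were apart. The catalytic subunits POLA1 and POLE rose by 0.74 ± 0.08 and 0.60 ± 0.11, and the delta subunits POLD3 and POLD2 by 0.54 ± 0.07 and 0.31 ± 0.09, POLD2 not after the shift to equal medians. POLD1, the catalytic subunit of polymerase delta, was at 0.16 ± 0.08 (adjusted p = 0.127). POLE2 fell by 0.57 ± 0.07 (1.49-fold, adjusted p = 6e-06), from 11.66, 11.60 and 11.62 to 11.08, 11.09 and 10.99. PRIM1 fell by 0.32 ± 0.09 (1.25-fold, adjusted p = 0.0079), from 11.27, 11.49 and 11.43 to 11.16, 11.01 and 11.07. Subunits of 1 enzyme therefore differed in direction, as POLE and POLE3 rose while POLE2 fell, and PRIM2 rose while PRIM1 fell.

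**Figure D3:**
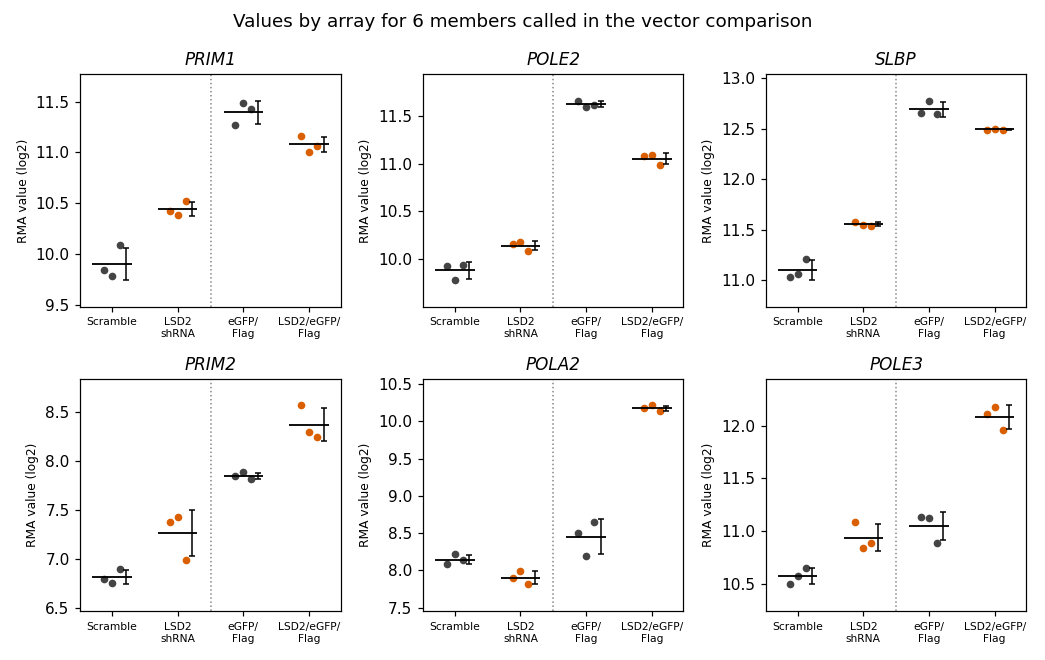
Log2 value (y axis, a scale of its own in each panel) of PRIM1, POLE2, SLBP, PRIM2, POLA2 and POLE3 by group (x axis). Points are arrays (control groups grey, modified groups orange), the line is the mean and the bar ± 1 SD (n = 3), and the dotted line parts the shRNA from the vector set. PRIM1, POLE2 and SLBP go up on the left of it and down on the right, and PRIM2 and POLE3 go up on both sides. POLA2 goes down on the left, where it was not called, and up on the right.

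Of the clamp and its loader, RFC1 and RFC5 rose by 0.72 ± 0.08 and 0.53 ± 0.09, and PCNA (0.12 ± 0.08), RFC2 (-0.17 ± 0.08), RFC3 (0.03 ± 0.08) and RFC4 (0.09 ± 0.08) were not called. The probe sets of RFC5 disagreed, with 1 other set that rose by 0.35 and 1 that fell by 1.61, so that the gene was at -0.24 with their mean. The other probe set of RFC3 fell by 0.38. RPA2, a subunit of the single-strand binding protein, went from 11.56, 11.30 and 11.20 to 12.43, 12.45 and 12.41, a rise of 1.08 ± 0.09 (2.11-fold, adjusted p = 1.5e-07). RPA3, its small partner, was at 0.17 ± 0.08 and was not called.

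LIG1 and FEN1, the enzymes on the list that finish lagging strand fragments, fell. LIG1, which seals them, was at 9.27, 9.44 and 9.49 and then at 8.52, 8.66 and 8.70, a fall of 0.77 ± 0.09 (1.71-fold, adjusted p = 5e-06). FEN1, which trims their flaps, was at 13.04, 13.06 and 13.15 and then at 12.71, 12.71 and 12.60, a fall of 0.41 ± 0.08 (1.33-fold, adjusted p = 0.00032), and its other probe set fell by 0.61. Neither gene had overlapping groups. Outside the list, the replication genes DNA2, RNASEH2A and RNASEH1 rose, by 0.61 ± 0.09, 0.92 ± 0.10 and 0.98 ± 0.08. UNG was at 0.09 ± 0.09. In nucleotide supply, TK1 was at 9.96, 9.96 and 10.07 and then at 9.34, 9.41 and 9.31, a fall of 0.64 ± 0.07 (1.56-fold, adjusted p = 4.6e-06). RRM1 (0.06 ± 0.07), RRM2 (-0.17 ± 0.13) and TYMS (0.03 ± 0.07) were not called, although the dimmer probe set of RRM1 fell by 0.45.

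SLBP fell by 0.20 ± 0.07 (1.15-fold, adjusted p = 0.0226), from 12.66, 12.77 and 12.64 to 12.49, 12.50 and 12.48. The modified arrays lay within a very narrow range under all controls, but the call was lost without LSD2/eGFP/Flag replicate 1 or 3, or control replicate 2 (adjusted p 0.051 to 0.0931). CHAF1B, a chromatin assembly subunit, rose by 0.48 ± 0.07 and its partner CHAF1A was at -0.15 ± 0.06 (adjusted p = 0.0569). TIMELESS, of the fork protection complex, rose by 0.73 ± 0.08, and TIPIN, its partner there, was at 0.09 ± 0.13. Of the 15 other probe sets of genes that rose in this comparison, 10 also rose, 3 were not called and 2 fell, and both of those for genes that fell also fell.

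Set side by side, 6 of the 54 genes rose in both comparisons (CDT1, CDC45, GINS3, CDK2, POLE3 and PRIM2), and 1.10% of all genes did. A further 3, POLE2, PRIM1 and SLBP, rose with the LSD2 shRNA and fell in the vector comparison, and 2.71% of all genes did. None of the 54 fell with the shRNA, so none fell in both (1.96% of all genes) or fell and then rose in the vector comparison (2.26% of all genes). In the vector comparison alone, 25 rose and 5 fell, and 15 were called in neither: ORC5, MCM10, DBF4, PCNA, RFC2, RFC3, RFC4, POLD1, RPA3, UNG, RRM1, RRM2, TYMS, CHAF1A and TIPIN. The comparisons share no arrays, and Pearson's r of their differences across the 54 genes was 0.02.

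The difference between the effects, vector minus shRNA, was itself tested in the fit. By this test 25 of the 54 genes were called higher in the vector comparison (28.0% of all genes) and 9 lower (22.4% of all genes, 50.4% in either direction). After the shift to equal medians these were 17 and 13 of the 54, while among all genes 2503 were called higher and 3791 lower in place of 3347 and 2682, and the median difference of the 54 genes went from 0.16 to -0.02. CDT1 differed by 1.30 ± 0.11 log2 units (adjusted p = 2.6e-07), GINS3 by 0.90 ± 0.11 (adjusted p = 8.6e-06) and POLE3 by 0.67 ± 0.13 (adjusted p = 0.00072), so these 3 rose by more in the vector comparison. CDK2, CDC45 and PRIM2 differed by 0.07 ± 0.12, 0.03 ± 0.08 and 0.07 ± 0.16 and were not called. The largest difference was that of POLA2, at 1.97 ± 0.14 (adjusted p = 7.2e-08), followed by CCNE1 at 1.66 ± 0.12, and the lowest that of CCNE2, at -1.17 ± 0.28 (adjusted p = 0.0029). For POLE2 the effects differed by -0.83 ± 0.10 (adjusted p = 7e-06), for PRIM1 by -0.85 ± 0.13 (adjusted p = 7.5e-05) and for SLBP by -0.65 ± 0.10 (adjusted p = 6.7e-05).

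Other genes of DNA replication, 57 of them listed and 46 measured, were counted in the same way. With the LSD2 shRNA 4 rose (8.7%, against 5.00% of all genes) and 1 fell (2.17%, against 5.53%), with a median of 0.08. The helicase-nuclease DNA2 rose by 0.68 ± 0.09, the phosphatase CDC25A, which activates CDK2, by 0.43 ± 0.10, the deoxycytidine kinase DCK by 0.42 ± 0.10 and the MCM binding protein MCMBP by 0.39 ± 0.09. RPA1, the large subunit of the single-strand binding protein, fell by 0.52 ± 0.08 (adjusted p = 0.00094). The calls of CDC25A, DCK and MCMBP were lost without single arrays: CDC25A without Scramble 1 or 2 or LSD2 shRNA 3 (adjusted p 0.0595 to 0.080), DCK without Scramble 2 or LSD2 shRNA 1 (0.0599 to 0.0646), and MCMBP without Scramble 2 or LSD2 shRNA 3 (0.0524 to 0.0562). In the vector comparison 26 of the 46 rose and 10 fell (17 and 16 after the shift to equal medians), with a median of 0.30. These are 56.5% and 21.7%, against 30.9% and 26.1% of all genes. The nucleotide pyrophosphatase DCTPP1 rose by 1.84 ± 0.07, the histone chaperone RBBP4 by 1.45 ± 0.09, the ribonuclease subunit RNASEH2B by 1.41 ± 0.11 and MCM9 by 1.34 ± 0.12. FAM111A, a protease that acts at the replication fork, fell by 5.54 ± 0.09, E2F8, a repressor of the E2F family, by 1.07 ± 0.11, RIF1, which sets replication timing, by 0.87 ± 0.15, and DCK by 0.76 ± 0.10.

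Genes of G2 and mitosis act after replication is finished. In the vector comparison 5 of the 38 measured rose (13.2%, against 30.9% of all genes) and 30 fell (78.9%, against 26.1%). After the shift to equal medians these were 3 and 31. The 38 genes had a median of -0.55, and stood at -0.54, -0.54 and -0.53 on the arrays labelled LSD2/eGFP/Flag relative to the control mean. The contrast with the replication genes was not itself tested. The proliferation marker MKI67 fell by 2.01 ± 0.13, the anaphase activator CDC20 by 1.72 ± 0.13, the kinesin KIF23 by 1.60 ± 0.10 and the spindle factor TPX2 by 1.22 ± 0.07. HMMR rose by 1.37 ± 0.11 and BIRC5, or survivin, by 0.84 ± 0.09. With the LSD2 shRNA 5 of the 38 rose and 5 fell (13.2% each, against 5.00% and 5.53% of all genes), with a median of -0.05. After the shift to equal medians 5 rose and 2 fell. The cytokinesis factor ECT2 rose by 0.63 ± 0.12 and the mitotic kinase AURKB fell by 0.56 ± 0.09. Among the falls, the call of BUB1B was lost without any 1 of 10 arrays (all but eGFP/Flag 1 and 3, adjusted p 0.0508 to 0.168) and that of INCENP without any Scramble array or LSD2 shRNA 1 or 2 (0.0614 to 0.113).

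**Figure D4:**
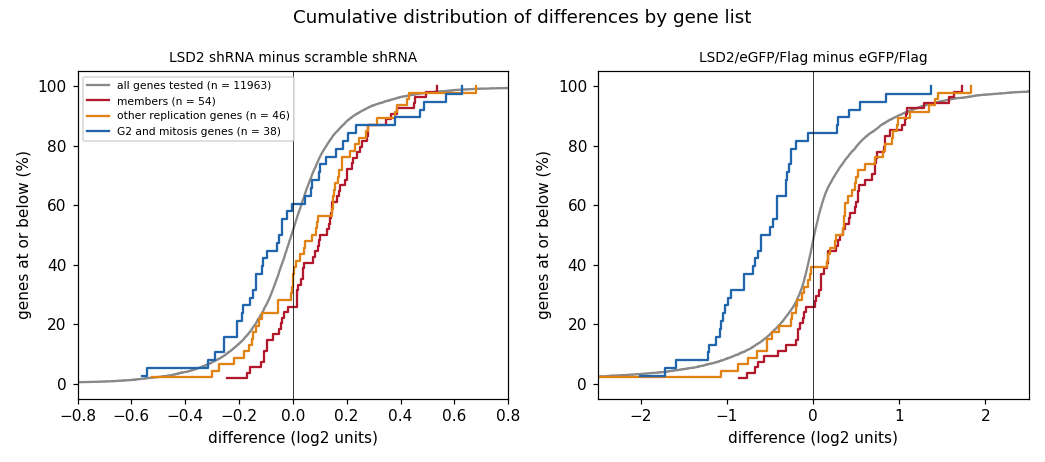
Cumulative share of genes (y axis, percent) at or below a given difference (x axis, log2 units) for all 11963 genes, the 54 replication and S phase genes, 46 other replication genes and 38 genes of G2 and mitosis, for the shRNA comparison (left) and the vector comparison (right). The x axis of each panel is cut at the ends, and some genes lie beyond it, among them FAM111A (-5.54) on the right. The medians are -0.01, 0.11, 0.08 and -0.05 on the left and 0.01, 0.33, 0.30 and -0.55 on the right.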

How the data were processed

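RNA of 12 samples (4 groups of 3) was measured on Affymetrix arrays. The authors deposited log2 values per probe set, and RMA (background correction, quantile normalization and probe summary) is named per the submitters' processing notes. Which software ran it, and with which probe annotation, is not given in the sources used here. RMA compresses low signals and gives no detection call, and precision is limited by the number of arrays.

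Of 22277 probe sets, 62 were controls and 19064 named 1 gene in the platform annotation (1043 several, 2108 none). Of the 19064, 19052 matched a RefSeq gene table of GRCh38.p14, and the brightest per gene over the 12 arrays gave 11963 genes. The other probe sets of the listed genes were fitted in the same way with adjustment over the 19064. Differences were fitted with limma 3.58.1 in R 4.3.3 (lmFit with 4 group means on 12 arrays, eBayes with 8 residual and 4.82 prior degrees of freedom, two-sided, Benjamini-Hochberg over all genes, called under 0.05) and the procedure was tested on simulated data. The members and lists were chosen with earlier results of these data known. By rule, values of every array are given for all genes called with the shRNA, the 12 largest vector rises, all vector falls and genes called in both. Up to 4 called rises and 4 called falls per comparison could be named from each other list. The vector rises of DNA2, RNASEH2A and RNASEH1 were added beside LIG1 and FEN1. Promoter letters were searched in RefSeq windows of GRCh38.p14. Protein sequences were not used here.

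The alternatives were a replicate block, the compared groups alone, cyclic loess, quantile normalization over 12 arrays, equal medians, a filter on the dimmest genes (7975 kept), the mean of a gene's probe sets or its most variable one, array weights, an intensity trend, each array left out in turn and 2 stricter thresholds.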

Additional observations from a re-analysis of the deposited data

Results flagged for a closer look

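For 3 genes the difference of the effects (limma, vector minus shRNA) was called and the effects were called in opposite directions. As the genes were picked for those opposite calls, the difference describes its size and is no independent support. For POLE2, a polymerase epsilon subunit, the difference of the effects was -0.83 log2 units (adjusted p = 7e-06). For PRIM1, the catalytic primase subunit, it was -0.85 (adjusted p = 7.5e-05), and for SLBP, the histone mRNA binding protein, -0.65 (adjusted p = 6.7e-05). In each gene every LSD2 shRNA array was above every Scramble array and every array labelled LSD2/eGFP/Flag was below every eGFP/Flag array. The shRNA call of POLE2 was lost without Scramble 1 or 2 or LSD2 shRNA 1 or 2 (adjusted p 0.0593 to 0.124), and the vector call of SLBP without eGFP/Flag 2 or LSD2/eGFP/Flag 1 or 3 (0.051 to 0.0931). All 3 arrays labelled LSD2/eGFP/Flag also had low MDA-MB-231 markers, at a mean of 6.69 to 6.89 against 11.78 to 11.84 on the eGFP/Flag arrays. The part of that in these differences was not tested, and it cannot be told apart from the part of the vector.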

How the results depend on the processing

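The count of replication genes that rose with the shRNA (9) was 16 with array weights, where rises among all genes went from 598 to 1128. It was 3 at an adjusted p under 0.01 and 1 with a difference of at least 0.5 log2 units. With 1 array left out it was 4 to 10, where rises among all genes were 364 to 635. With the mean of all probe sets 1 gene fell (0 in limma otherwise, and 0 with any array left out). The vector falls (8) were 5 with a difference of at least 0.5 log2 units. With 1 array left out the vector rises were 30 to 31 and the falls 7 to 9, and the difference of effects was higher for 23 to 25 and lower for 8 to 10. RFC5 reversed in the vector comparison, to -0.24 with the mean of its probe sets and -1.61 with the most variable one, which is another probe set by construction. Of 468 values of the vector calls under other settings 439 kept their call, 27 lost it and 2 reversed, and of 108 values of the shRNA calls 90 kept it and 18 lost it. With 1 array left out, 456 of 468 and 86 of 108 kept it. Where not stated, the cause was not tested. Replicate numbers were not taken as a pairing, as same-numbered arrays deviated with r of 0.02, 0.51 and 0.45 (shRNA) and -0.14, 0.17 and 0.18 (vector), so not every pair deviated together. Arrays of unlike number had r of -0.48 to 0.07 and -0.24 to 0.10, and replicates 2 and 3, but not every replicate 1, correlated best with their own number in both comparisons. With a replicate block 10 genes rose and 0 fell with the shRNA, 30 rose and 8 fell in the vector comparison, and the difference of effects was higher for 25 and lower for 10. Among all genes that block gave 775 rises and 865 falls with the shRNA, and 3794 and 3169 in the vector comparison. Low signals and 3 arrays per group limit what small changes can be seen.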
